A study of Mus musculus with 6 samples.

Results

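RBM, HNRNP and SRSF proteins and QKI bind RNA and help to decide which exons a transcript keeps. The 75 genes described here are the rows of the deposited count table whose symbol starts with Rbm, Hnrnp or Srsf, together with Qki, out of 19251 rows in all. Rbm3, a cold-induced gene, was left out by the rule. There were 42 RBM genes, 20 HNRNP genes, 12 SRSF genes and Qki, and all 75 passed the filter on low counts that left 19109 genes tested.

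Polyadenylated RNA of the substantia nigra, a midbrain region whose dopaminergic neurons die in Parkinson's disease, was sequenced in bulk. The fasting group had 3 libraries from C57BL/6 mice with the genotype rAAV-A53T-aSynuclein that were kept on intermittent fasting for 10 weeks, begun 2 weeks after surgery, with food withheld for 24 hours on each of 3 days a week. The ad libitum group had 3 libraries from mice of the same strain and genotype that were moved between cages at the same times but always had food. Every mouse therefore carried the vector, a recombinant adeno-associated virus with the A53T form of human alpha-synuclein, and the comparison is of diets within the model. The promoter of the vector, the age and sex of the mice, whether a library came from 1 animal and the time from the last fast to tissue collection were not stated in the labels, so p-values measure the spread between these samples only.

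SR proteins, encoded by the Srsf genes, carry RNA recognition motifs and a tail rich in arginine and serine. They mostly bind exons and recruit the spliceosome, and kinases of the SRPK and CLK families phosphorylate the tail. Heterogeneous nuclear ribonucleoproteins (hnRNPs) coat nascent transcripts and often oppose exon inclusion. The RBM symbols cover a mixed set of proteins with RNA recognition motifs: parts of the spliceosome, regulators of alternative splicing, and factors of RNA methylation, decay and ribosome assembly. QKI, a KH-domain protein, is abundant in oligodendrocytes and astrocytes, and the quaking mouse mutant of this gene lacks compact myelin. The counts are per gene, so they give the abundance of each regulator's transcripts and not which exons were used.

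The libraries held 42990234 to 46594066 estimated counts under fasting and 46337950 to 48179706 ad libitum. Levels are given as CPM, counts scaled to the same library total after TMM normalisation, and are not divided by transcript length. Markers of dopaminergic neurons were present in every library: their 8 genes, among them Th and Slc6a3, summed to 506 to 1034 CPM under fasting and 553 to 1484 CPM ad libitum, with none at 0 in any library. Ad libitum replicate 2 stood apart in genes of cholinergic and hypothalamic neurons, which summed to 600 CPM there. These genes summed to 118 to 151 CPM under fasting and, ad libitum, 34.3 CPM in replicate 1 and 11.5 CPM in replicate 3. Ad libitum replicate 3 had the highest sums of dopaminergic markers (1484 CPM) and of erythroid markers (1736 CPM). Ad libitum libraries also differed more among themselves than fasting libraries did: the chi-square per degree of freedom between the counts of a pair was 8.19 to 19.6 among fasting libraries and 42.9 to 77.7 among ad libitum libraries. Ad libitum replicate 1 was nearer to each fasting library (28.76, 30.57 and 30.996) than to the other ad libitum libraries (45.5 and 77.7), and the calls without it are given with the other fits.

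Promoters are shown because they belong to Hnrnpc, the called member of the HNRNP family, and to Srsf2, the member with the smallest p among those with a higher level under fasting. Each runs from 250 bases before to 50 bases after the RefSeq gene start on GRCm38.p6 and is written 5′ to 3′ on the gene's strand, with CCAAT, or its reverse complement ATTGG, in capitals. The Hnrnpc promoter lies at chr14:52103972-52104271 and the Srsf2 promoter at chr11:116853045-116853344, both on the minus strand.
Hnrnpc: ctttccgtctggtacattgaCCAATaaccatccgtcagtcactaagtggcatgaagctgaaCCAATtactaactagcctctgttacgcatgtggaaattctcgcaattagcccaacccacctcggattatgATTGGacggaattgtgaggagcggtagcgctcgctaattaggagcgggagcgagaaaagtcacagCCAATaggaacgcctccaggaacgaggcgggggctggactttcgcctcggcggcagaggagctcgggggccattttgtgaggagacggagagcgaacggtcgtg
Srsf2: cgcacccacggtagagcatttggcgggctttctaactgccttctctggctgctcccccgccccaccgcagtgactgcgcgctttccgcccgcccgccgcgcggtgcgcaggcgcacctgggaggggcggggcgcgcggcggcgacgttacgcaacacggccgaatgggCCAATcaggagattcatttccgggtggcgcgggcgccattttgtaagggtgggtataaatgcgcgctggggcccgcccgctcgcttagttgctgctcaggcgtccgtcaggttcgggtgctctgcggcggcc
CCAAT is the letter sequence that the factor NF-Y recognises. The Hnrnpc window held 4 copies, starting 230, 189, 119 and 54 bases before the annotated start, and the Srsf2 window held 1 copy, 82 bases before it. Over 32851 promoters of the same length in the table, 37.4% held at least 1 copy of CCAAT on either strand and 1.06% held at least 4. The TATA box letters TATAAA occurred 1 time in the Srsf2 window and 0 times in the Hnrnpc window, and were in 13.6% of all promoters. The GC box letters GGGCGG occurred 5 times in Srsf2 and 0 times in Hnrnpc, and were in 35.7% of all promoters. Motifs were searched separately on both strands, with overlaps allowed. RefSeq promoters were found for 64 of the 75 members. Of their 85 promoters 45.9% held CCAAT, 14.1% TATAAA and 61.2% GGGCGG, and the median GC content was 62.0% against 52.7% over all promoters. Qki had no entry.

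Of the 75 genes 56% differed by less than 0.1 on the log2 scale between diets, and the 2 called genes, Hnrnpc and Qki, were both lower under fasting. At an adjusted p below 0.05 in edgeR's quasi-likelihood test 0 members were called higher and 2 lower, which is 2.67% of members. Of all genes tested 0.497% were called, 0.147% higher and 0.351% lower. At an unadjusted p below 0.05 there were 5 higher and 10 lower members, 20%, which is close to the 20.4% of all genes. The median log2 fold change, fasting minus ad libitum, was -0.00516 over members and -0.00498 over all genes. Its median size was 0.09 over members and 0.15 over all genes. In 42 members, 56% against 35.9% of all genes, it was less than 0.1. The 3 libraries of one diet did not overlap those of the other in 11 members that were higher and 19 that were lower under fasting, 40% of members against 27.5% of all genes (12.5% higher and 15% lower). The comparison with all genes was not matched for level.

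**Figure D1:**
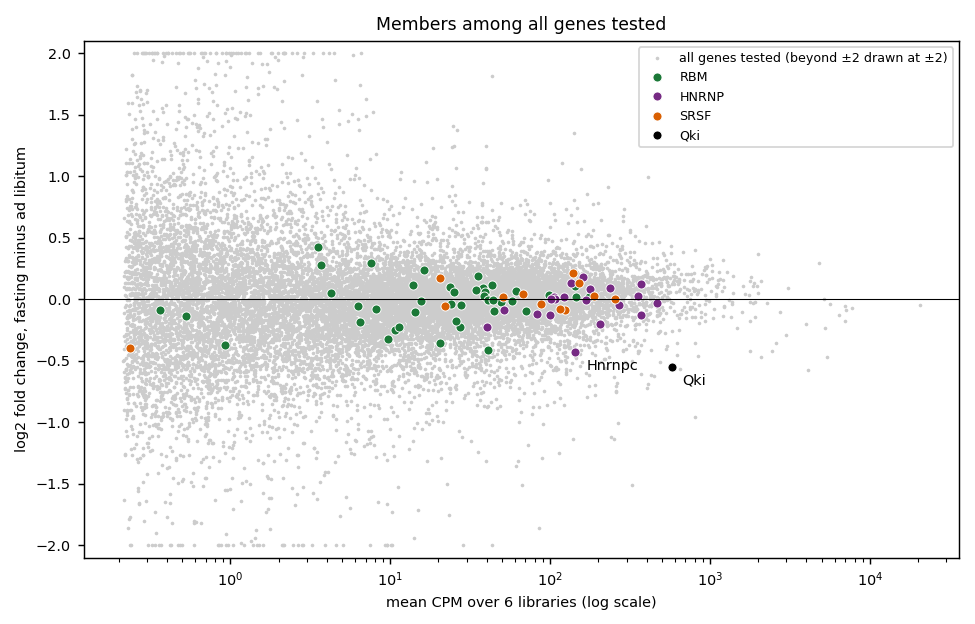
Log2 fold change (fasting minus ad libitum) of each gene against its mean CPM over 6 libraries on a log axis. Grey points are the 19109 genes tested and coloured points the 75 members by family, with genes beyond 2 on either side drawn at 2; members lie close to 0 except for a few, of which Qki (-0.55) and Hnrnpc (-0.43) passed the test.

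The summed level of the 75 genes was 6954, 6888 and 6969 CPM in fasting replicates 1, 2 and 3, against 7094, 7339 and 7106 CPM in ad libitum replicates 1, 2 and 3. Without Hnrnpc and Qki the remaining 73 genes summed to 6370, 6283 and 6390 CPM under fasting and 6305, 6431 and 6262 CPM ad libitum. The sums of all 75 did not overlap between diets, while those of the 73 did. Hnrnpc and Qki were left out because these same data called them lower, so the overlap of the 73 is not a separate result. The median SD of log2 CPM over members was 0.05 between fasting libraries and 0.07 between ad libitum libraries, and 46 of 75 members, 61.3%, varied more ad libitum. Over 12181 genes of at least 5 CPM these medians were 0.07 and 0.11, and 72.5% varied more ad libitum.

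Hnrnpc (ENSMUSG00000060373, chromosome 14) encodes the hnRNP C proteins, which bind uridine tracts in nascent transcripts and compete with the splicing factor U2AF at such tracts. It was at 117, 125 and 126 CPM in the fasting libraries and 163, 169 and 164 CPM in the ad libitum libraries. Every fasting library lay below every ad libitum library, and the gap between diets was wider than the range within either. Hnrnpc fell 1.35-fold under fasting, to 123 ± 4.75 CPM against 165 ± 2.97 CPM ad libitum (SD, n = 3 each). The log2 fold change was -0.43 (SE 0.05, 95% interval -0.56 to -0.31, edgeR adjusted p = 0.0422). In GENCODE M21, 13.6% of its transcript sequence in words of 31 bases also occurs in transcripts of other genes. Gm12696, Gm18889 and Gm12445 share the most with it.

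Qki (ENSMUSG00000062078, chromosome 17) encodes a regulator of splicing, stability and transport of messenger RNAs, those of myelin proteins among them. Its levels were 466, 480 and 453 CPM under fasting and 626, 740 and 679 CPM ad libitum. The fasting libraries were low and close together, and the ad libitum libraries were higher and more spread. Qki fell 1.46-fold under fasting, to 466 ± 13.7 CPM against 682 ± 56.7 CPM ad libitum (SD, n = 3 each). On the log2 scale this is -0.55 (SE 0.07, 95% interval -0.72 to -0.37, edgeR adjusted p = 0.0427). Only 0.421% of its sequence is shared with other genes.

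Both calls were close to the threshold. With all 6 libraries they were also made by edgeR with RLE scaling (0.44% of all genes called), with upper-quartile scaling (0.481%), with no filter (0.421%) and with the filter set at a mean count of 50 or more (0.533%). DESeq2 called both as well, among 6 members, or 8%, and 7.4% of all genes. Limma-voom gave adjusted p = 0.0518 for Hnrnpc and 0.0541 for Qki (0.167% of all genes called), and edgeR without robust shrinkage gave 0.0503 and 0.0518 (0.0471%).

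Leaving out 1 library ended both calls in 5 of 6 cases, under edgeR's quasi-likelihood test. Without ad libitum replicate 2 the adjusted p was 0.0601 for Hnrnpc and 0.0533 for Qki, with 0.235% of all genes called. Without ad libitum replicate 3 these were 0.115 and 0.118, with 0.00521% called. Removing fasting replicate 2 gave 0.0691 and 0.0811, with 0.354% called. Removing fasting replicate 1 gave 0.246 and 0.253, removing fasting replicate 3 gave 0.287 for both, and 0% of all genes were called in either fit. Removing ad libitum replicate 1 left both called (0.0191 and 0.0145), along with 6.18% of all genes. The size varied less, from -0.46 to -0.41 for Hnrnpc and from -0.61 to -0.49 for Qki on the log2 scale.

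Markers of oligodendrocytes, microglia and astrocytes summed lower in every fasting library than in any ad libitum library, as the 2 called members were. All 10 oligodendrocyte markers, among them Mbp and Mog, had a negative log2 fold change, 1 of them called, and they summed to 9886 to 12393 CPM under fasting against 14054 to 19120 CPM ad libitum. All 10 microglial markers were on the same side, 3 of them called, with sums of 314 to 322 CPM under fasting and 409 to 556 CPM ad libitum. Of 8 astrocyte markers 7 were below 0 and 0 called (3506 to 3734 CPM under fasting, 3837 to 4796 CPM ad libitum), and of 8 neuronal markers 6 were above 0 and 0 called, with overlapping sums (5927 to 6269 CPM under fasting, 5034 to 6685 CPM ad libitum). The 5 erythroid genes were all below 0 with overlapping sums (254 to 657 CPM under fasting, 430 to 1736 CPM ad libitum), as were 5 of 6 endothelial genes, with 0 called in either list. No marker in these lists was at 0 in any library. In bulk tissue fewer cells of a type and less RNA per cell cannot be told apart.

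Set against the oligodendrocyte markers, Qki overlapped between diets. For each 1000 CPM of summed oligodendrocyte marker there were 47.1, 38.8 and 42.7 CPM of Qki under fasting and 44.6, 38.7 and 48.3 CPM ad libitum. Set against astrocyte markers Qki was lower in every fasting library, at 125, 137 and 123 CPM for each 1000 CPM, against 163, 171 and 142 CPM ad libitum. Set against neuronal markers it was lower as well, at 74.6, 76.6 and 76.4 CPM under fasting against 93.7, 147 and 118 CPM ad libitum. Hnrnpc, which most cells express, also overlapped against the oligodendrocyte markers, at 11.8, 10.0 and 11.9 CPM under fasting and 11.6, 8.82 and 11.7 CPM ad libitum. Against astrocyte markers Hnrnpc overlapped, unlike Qki, at 31.4, 35.5 and 34.22 CPM under fasting and 42.4, 38.9 and 34.24 CPM ad libitum, with fasting replicate 2 above ad libitum replicate 3. Both genes overlapped between diets against the microglial markers. Against neuronal markers Hnrnpc was lower, at 18.8, 19.9 and 21.3 CPM under fasting and 24.4, 33.5 and 28.6 CPM ad libitum. The part of cell composition in either fall was not tested.

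**Figure D2:**
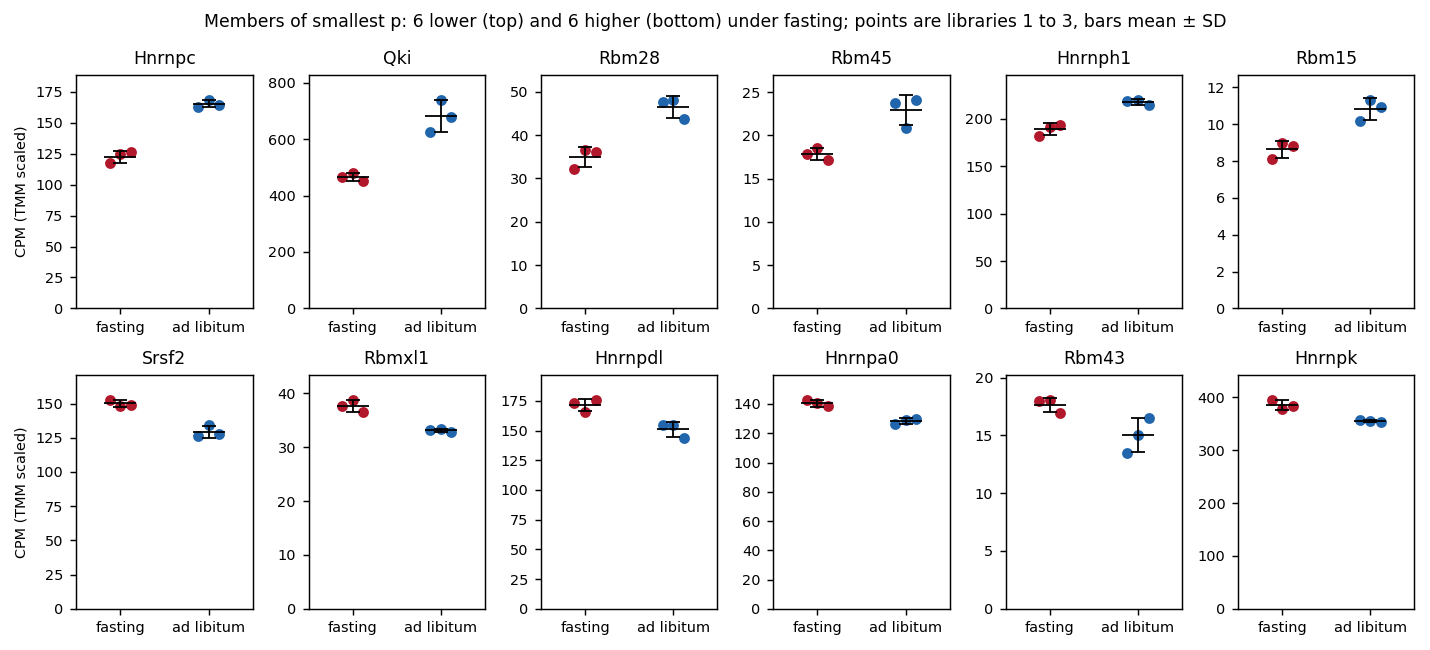
Level in CPM after TMM scaling of 12 members in each library, with fasting left of ad libitum; points are replicates 1 to 3 and bars the mean ± SD. The 12 are the 6 of smallest p in each direction, a choice that favours separate groups; diets do not overlap in 40% of all members and 27.5% of all genes. Hnrnpc lies at 117 to 126 CPM under fasting and 163 to 169 CPM ad libitum.

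The 20 HNRNP genes, Hnrnpc included, had a median log2 fold change of -0.00305, with 9 above 0 and 11 below. Of these 20 genes 0 were called higher, beside 0.147% of all genes. The F and H proteins bind runs of guanine. Hnrnph1 (ENSMUSG00000007850) had the smallest p of the HNRNP genes that were not called, with 182, 192 and 193 CPM under fasting and 219, 220 and 215 CPM ad libitum. Its groups did not overlap, but the change of -0.21 did not pass over all genes (SE 0.05, edgeR adjusted p = 0.103, and 0.0142 by DESeq2). Hnrnph3, the HNRNP gene with the largest spread between ad libitum libraries, was at 33.5, 39.7 and 38.9 CPM under fasting and 39.6, 48.01 and 43.2 CPM ad libitum, with overlap. Hnrnpf was at -0.12 and Hnrnph2 at 0.02, with 38.5% and 21.9% of their sequence shared with other genes.

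The A and D types bind AU-rich and UAGG-like sequences. Hnrnpdl had 173, 165 and 176 CPM under fasting and 154, 155 and 143 CPM ad libitum, and Hnrnpa0 had 143, 140 and 138 CPM under fasting and 126, 129 and 130 CPM ad libitum. In both genes every fasting library was above every ad libitum library, with log2 fold changes of 0.18 and 0.13 that did not pass (edgeR adjusted p = 0.146 and 0.194). Hnrnpa2b1, whose protein carries messenger RNAs such as that of myelin basic protein along processes, pointed the other way, with 348, 353 and 360 CPM under fasting and 378, 409 and 374 CPM ad libitum (-0.13, edgeR adjusted p = 0.268). Hnrnpa1 was at 0.09 and Hnrnpa3 at 0.03, with 29.3% and 28.1% of their sequence shared with other genes. Hnrnpd was at 0.08 and Hnrnpab at 0.00 (95% interval -0.12 to 0.12).

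Hnrnpk, a KH-domain protein that binds cytosine-rich RNA, was at 395, 378 and 383 CPM under fasting and at 357, 354 and 354 CPM ad libitum. The ad libitum libraries were almost level and the fasting libraries all higher (log2 fold change 0.12, edgeR adjusted p = 0.250). Hnrnpu, which binds chromatin-associated RNA, was at 455, 453 and 466 CPM under fasting and 485, 465 and 456 CPM ad libitum, and its groups overlapped (-0.03, 95% interval -0.16 to 0.09). The remaining genes were Hnrnpm at -0.13, Hnrnpll at -0.09, Hnrnpul2 at -0.05, Hnrnpl at -0.01, Hnrnpul1 at 0.00 and Hnrnpr at 0.02 on the log2 scale, none of them called.

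The SR protein genes stayed within a narrow band. Of the 11 SR genes, leaving aside the pseudogene Srsf3-ps, 7 were above 0 and 4 below, from -0.09 for Srsf3 to 0.22 for Srsf2. With 0.497% of all genes called, 0 calls among these 11 genes do not set them apart. Srsf2 (ENSMUSG00000034120), whose protein SC35 binds exonic enhancers and marks nuclear speckles, was at 153, 148 and 149 CPM under fasting and 126, 134 and 127 CPM ad libitum. The lowest fasting library was above the highest ad libitum library. The level was 150 ± 2.33 CPM under fasting and 129 ± 4.33 CPM ad libitum (SD, n = 3 each), which is 0.22 on the log2 scale (SE 0.05, 95% interval 0.09 to 0.34) and did not pass with edgeR (adjusted p = 0.0926) and passed with DESeq2 (adjusted p = 0.00844). Exons of Srsf2 overlap those of Mettl23 and Mfsd11 on the opposite strand in GENCODE M21. Whether counting used strand is not stated, so reads of these genes may not be separated.

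Srsf12 was at 21.7, 20.7 and 22.3 CPM under fasting and 17.8, 20.7 and 19.1 CPM ad libitum, and it had the largest spread between ad libitum libraries of the SRSF genes above 5 CPM. Its lowest fasting library was above its highest ad libitum library by less than the printed digits show (log2 fold change 0.17, edgeR adjusted p = 0.262). Srsf11 was at 159, 152 and 161 CPM under fasting and 146, 153 and 133 CPM ad libitum, with overlap (0.13, edgeR adjusted p = 0.328). Srsf1, the classical factor ASF/SF2, was at 189, 187 and 192 CPM under fasting and 180, 187 and 190 CPM ad libitum. Srsf5 was at 253, 244 and 262 CPM under fasting and 239, 267 and 250 CPM ad libitum. The groups of both overlapped, and the 95% intervals of their log2 fold changes were -0.09 to 0.15 and -0.15 to 0.16. Srsf3-ps had as few as 7 counts in a library and 66.0% of its sequence is shared, so its value of -0.40 is uncertain.

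**Figure D3:**
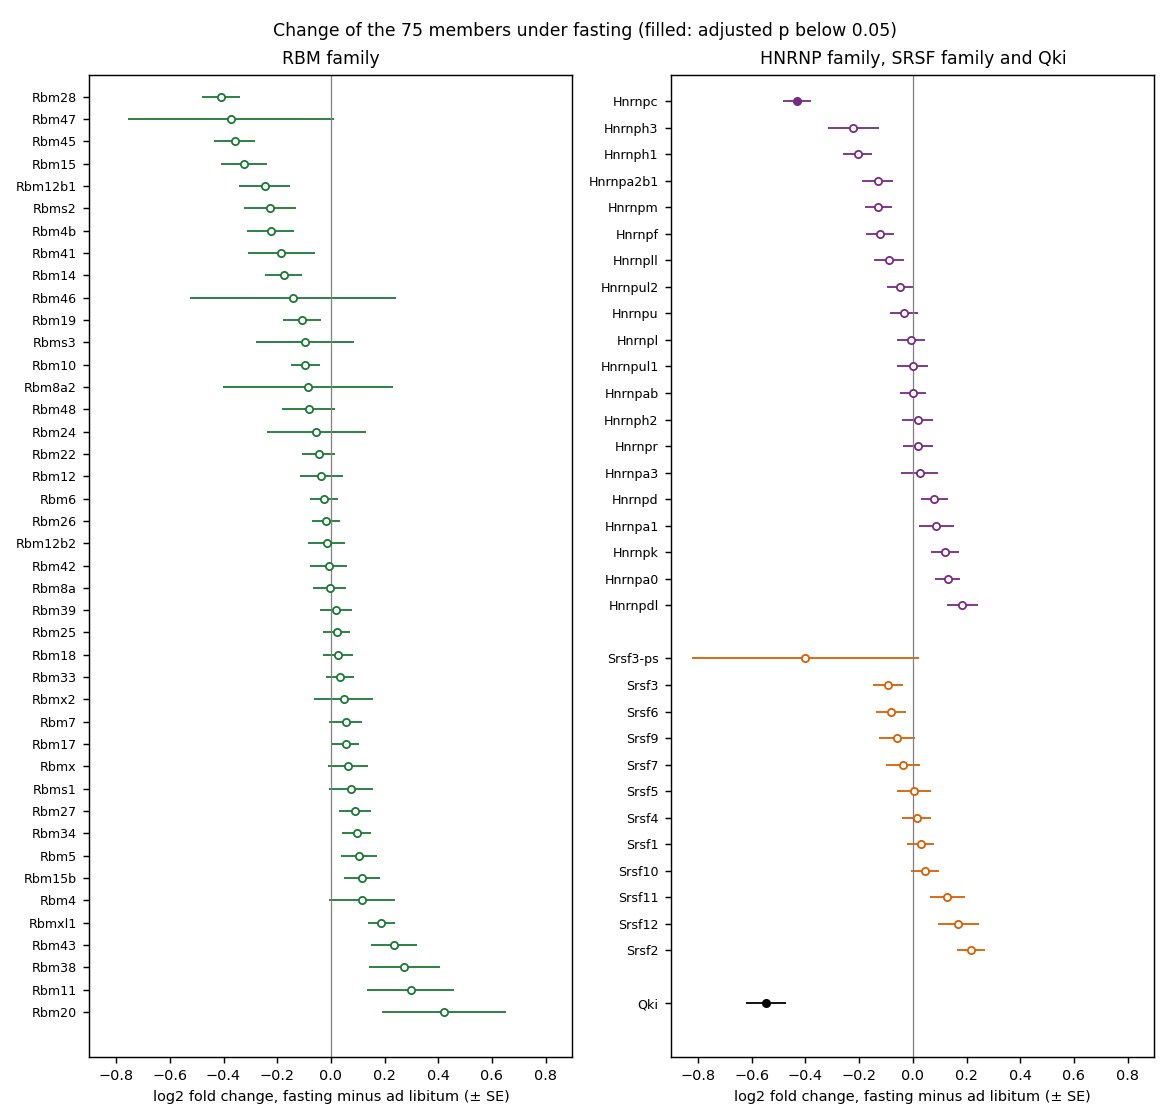
Log2 fold change (fasting minus ad libitum) of all 75 members with its SE, RBM genes on the left and HNRNP, SRSF and Qki on the right. Filled points passed at an adjusted p below 0.05 (Hnrnpc and Qki), and 42 of 75 points lie within 0.1 of 0, 56% against 35.9% of all genes.

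Among the RBM genes 0 of 42 were called, beside 0.497% of all genes, and 19 were above 0 and 23 below. At that share 0 calls among 42 genes do not set the family apart. Of 10 genes for proteins of the spliceosome and the exon junction complex 9 were within 0.1 of 0, against 35.9% of all genes. Among the 9 were Rbm8a (Y14 of the exon junction complex), Rbm17, Rbm22, Rbm25 and Rbm39, and Rbm41 was at -0.19. Rbm8a2, also among the 9, had only 12 to 21 counts in a library, with a 95% interval of -0.83 to 0.66. Rbm42, another of the 9, shares 74.4% of its sequence with other genes. Rbm39 was at 177, 172 and 175 CPM under fasting and 165, 184 and 167 CPM ad libitum. Rbm25, which works with the U1 particle, was at 150, 141 and 146 CPM under fasting and 142, 144 and 144 CPM ad libitum. In both genes the fasting range lay around or within the ad libitum range, with 95% intervals of the log2 fold change of -0.12 to 0.16 and -0.10 to 0.14. The nuclear RNA decay genes Rbm7, Rbm26 and Rbm27, whose proteins serve the exosome, were at 0.05, -0.02 and 0.09.

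Rbm28 (ENSMUSG00000029701), a nucleolar protein of ribosome assembly, had the smallest p of the RBM genes. It was at 32.3, 36.6 and 36.1 CPM under fasting and 47.7, 48.2 and 43.6 CPM ad libitum. The highest fasting library was well below the lowest ad libitum library. The level was 35.0 ± 2.36 CPM under fasting and 46.5 ± 2.49 CPM ad libitum (SD, n = 3 each), and the log2 fold change of -0.41 (SE 0.07, 95% interval -0.58 to -0.24) did not pass over all genes (edgeR adjusted p = 0.0618). It passed with DESeq2 (adjusted p = 0.000651) and in edgeR without ad libitum replicate 1 (adjusted p = 0.0407). Rbm19 and Rbm34, also of ribosome assembly, were at -0.11 and 0.10.

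Rbm45 (ENSMUSG00000042369), a protein of the nervous system found in inclusions of human amyotrophic lateral sclerosis, was at 17.9, 18.5 and 17.2 CPM under fasting and 23.8, 20.9 and 24.1 CPM ad libitum. All fasting libraries were lower, and the log2 fold change was -0.36 (SE 0.08, edgeR adjusted p = 0.0755, and 0.0132 by DESeq2). Rbm15, which guides the RNA methylation complex that makes N6-methyladenosine, was at 8.10, 8.99 and 8.83 CPM under fasting and 10.2, 11.3 and 10.9 CPM ad libitum, without overlap (-0.32, SE 0.09, edgeR adjusted p = 0.111). Its relative Rbm15b, whose exons overlap those of Manf and Dcaf1, was at 0.11.

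Of the regulators of alternative splicing, Rbmxl1 was at 37.7, 38.8 and 36.5 CPM under fasting and 33.2, 33.3 and 32.7 CPM ad libitum. All fasting libraries were higher (0.19, SE 0.05, edgeR adjusted p = 0.113), but 87.4% of its sequence is shared with other genes, so the value is uncertain. Gm7324, Gm7192 and Rbmx share the most with it, though Rbmx shares only 3.36% of its own sequence with other genes. Rbm5, whose protein affects splicing of apoptosis genes, was at 146, 144 and 152 CPM under fasting and 127, 148 and 137 CPM ad libitum, with overlap (0.10, edgeR adjusted p = 0.439). The splicing regulator Rbm20, known for titin in the heart, had the highest log2 fold change of all members at 0.42, but at about 3.51 CPM its SE was 0.23 (edgeR adjusted p = 0.357). Rbm11, Rbm38 and Rbm24 were at 0.30, 0.27 and -0.05, and Rbm4b, Rbm14 and Rbm10 at -0.22, -0.17 and -0.10. The remaining genes of this class were Rbm4 at 0.12, Rbmx at 0.06, Rbm6 at -0.03 and Rbm47 at -0.37, the last at 0.922 CPM on average, where the SE was 0.38. Rbm4 and Rbm10 share 59.1% and 51.2% of their sequence with other genes, so their values are uncertain. Exons of Rbm4 and of Rbm14 overlap those of Gm21992 on the same strand.

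Rbm43 was at 17.96, 18.1 and 17.0 CPM under fasting and 13.5, 15.1 and 16.5 CPM ad libitum. Its groups were separate but close (0.23, SE 0.09, edgeR adjusted p = 0.197). Of other RBM genes Rbm12b1 was at -0.25, Rbm46 at -0.14, Rbm12 at -0.04, Rbm12b2 at -0.02, Rbm18 at 0.03 and Rbm33 at 0.03, with 0 called. Rbm12b1, Rbm12b2 and Rbm12 share 68.1%, 62.4% and 33.4% of their sequence with other genes, which limits their values. Of the single-stranded nucleic acid binding RBMS proteins, Rbms2 was at -0.23 and Rbms1 at 0.08. Rbms3 varied most between ad libitum libraries among the RBM genes above 5 CPM. It was at 67.4, 75.9 and 61.4 CPM under fasting and 79.5, 53.8 and 85.6 CPM ad libitum, so ad libitum replicate 2, the library with the most cholinergic and hypothalamic marker counts, was the lowest of all 6. Its log2 fold change was -0.10 with all libraries (edgeR adjusted p = 0.803) -0.28 without that library (adjusted p = 0.200) and 0.03 without ad libitum replicate 3 (adjusted p = 0.946).

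Ratios between related members within a library do not depend on how libraries are scaled. For 7 pairs chosen after their values were seen, the ratio of counts was compared with a two-sided exact permutation test, whose smallest possible p with 3 against 3 libraries is 0.1, so that no pair could pass. Rbm15 over Rbm15b was 0.166, 0.214 and 0.202 under fasting and 0.243, 0.272 and 0.268 ad libitum, a difference of -0.44 on the log2 scale without overlap (exact p = 0.1, adjusted over the 7 pairs 0.14). Hnrnph1 over Hnrnph2 was 1.401, 1.59 and 1.62 under fasting and 1.72, 1.85 and 1.81 ad libitum, also without overlap (-0.22, exact p = 0.1). The ratio of Hnrnpa0 to Hnrnpa2b1 was 0.398 ± 0.0130 under fasting and 0.332 ± 0.0164 ad libitum (SD, n = 3 each, exact p = 0.1), with every fasting library higher. Hnrnpdl over Hnrnpd (0.10) and Rbm12b1 over Rbm12b2 (-0.23) did not overlap either, while Rbm4b over Rbm4 and Rbmxl1 over Rbmx did (exact p = 0.3 each). The sequences of Rbm12b1 and Rbm12b2 are shared to 68.1% and 62.4%, so their ratio is uncertain. Rbmxl1 shares 87.4% of its sequence with other genes, Rbm4 59.1% and Hnrnph2 21.9%, which limits their ratios too. Exons of Rbm15b overlap those of Manf on the same strand and Dcaf1 on the opposite strand. Its counts may therefore hold reads of those genes.

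**Figure D4:**
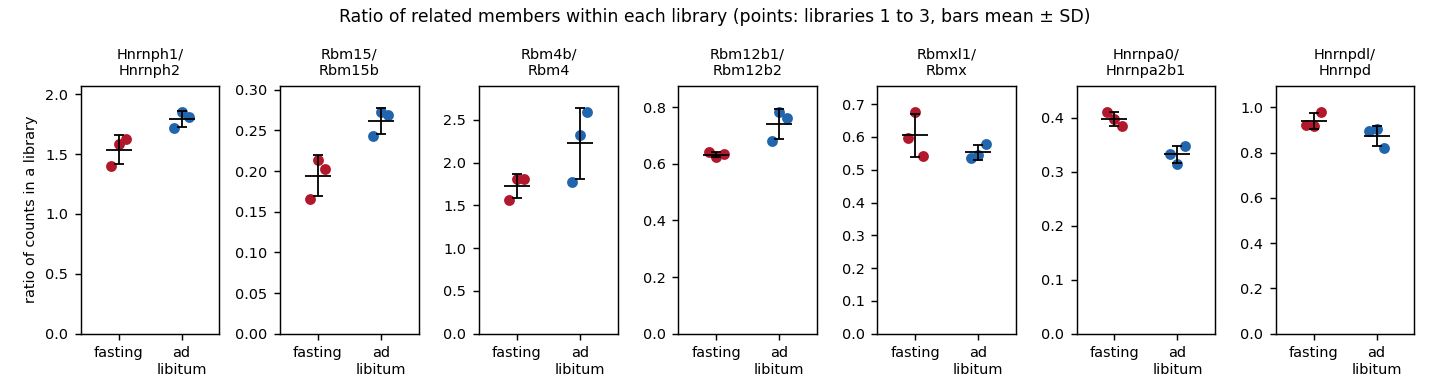
Ratio of the counts of 7 pairs of related members in each library, with fasting left of ad libitum; points are replicates 1 to 3 and bars the mean ± SD. The 7 pairs were chosen after their values were seen, a choice that favours separate groups. For 5 pairs the diets do not overlap, as for Rbm15 over Rbm15b at 0.166 to 0.214 under fasting and 0.243 to 0.272 ad libitum. Exons of Rbm15b overlap those of Manf and Dcaf1, so its counts may hold their reads.

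Other splicing genes, taken from 10 lists of spliceosome parts and regulators, were called in 0 of 128 genes tested, beside 0.497% of all genes. At that share 0 calls among 128 genes do not set these genes apart. Of the 128 genes 80 were above 0 and 48 below, with a median log2 fold change of 0.04. At an unadjusted p below 0.05 there were 10 higher and 9 lower, 14.8% of these genes against 20.4% of all genes. DESeq2 called 3 of them, Mbnl1, Elavl3 and Rnps1, which is 2.34% against 7.4% of all genes. Over the 5 lists of core particles 45 of 59 genes were above 0, or 76.3% against 49.1% of all genes. Within 0.1 of 0 lay 39 of the 59, and 35.9% of all genes. The lists were chosen with earlier results of these data known, and the count over these 5 together was not a planned result. The medians of the 5 lists were 0.09 over 9 genes of U1, 0.03 over 16 of U2 and the branch site, 0.05 over 16 of the tri-snRNP, 0.11 over 8 Sm proteins and 0.04 over 10 of the Prp19 complex. In these lists the genes of smallest p were Prpf40b (0.15), Sf3b4 (0.09), Txnl4a (-0.31), Snrpd3 (0.16) and Prpf19 (0.21), and none passed (edgeR adjusted p from 0.114 to 0.433).

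The 10 genes that phosphorylate SR proteins or import them into the nucleus had a median of -0.01, with 5 above 0, 5 below and 0 called. Srpk3 had the smallest p among them, at 5.05, 6.57 and 7.08 CPM under fasting and 7.79, 9.85 and 7.46 CPM ad libitum, low in every fasting library (-0.42, edgeR adjusted p = 0.216). Of 16 SR-related and exon junction genes 10 were above 0, and Rnps1 had the smallest p (0.19, edgeR adjusted p = 0.107). Of 27 tissue-specific regulators 14 were above 0 and 13 below. The smallest p there was that of Mbnl1, which promotes the adult pattern of many exons, at 116, 120 and 115 CPM under fasting and 136, 141 and 131 CPM ad libitum (-0.22, SE 0.05, edgeR adjusted p = 0.0932). The 8 hnRNPs under other symbols had a median of -0.03, with 1 above 0 and 7 below. The 1 above was Pcbp3, which also had the smallest p, at 0.31 (edgeR adjusted p = 0.174).

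**Figure D5:**
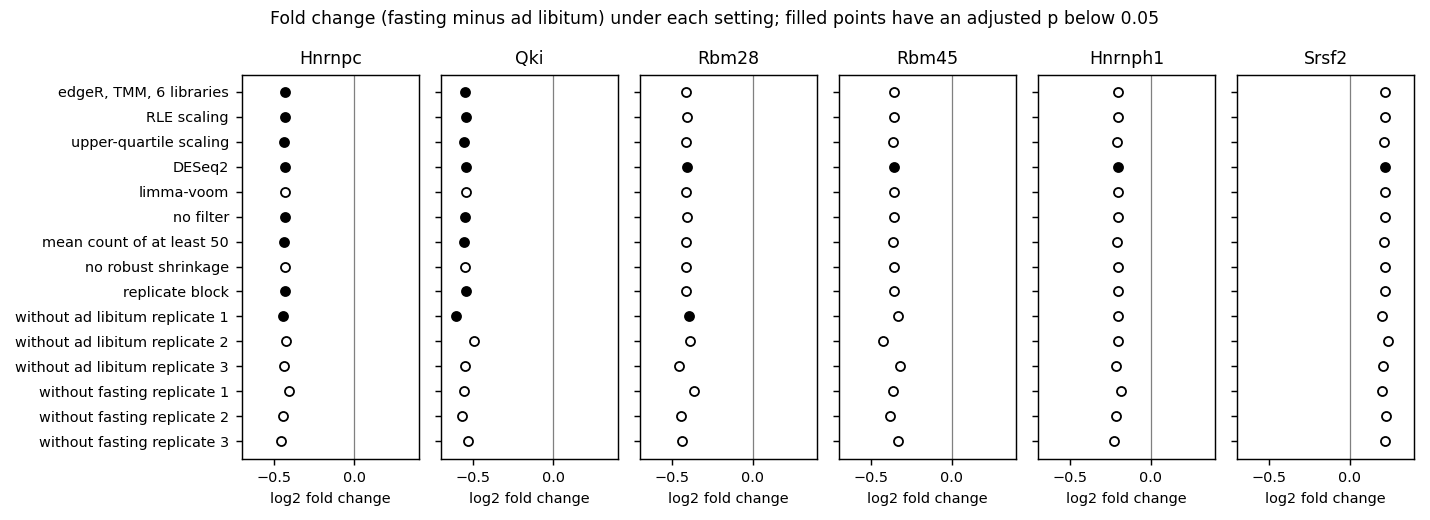
Log2 fold change (fasting minus ad libitum) of 6 members under the 15 settings run, from the 6-library edgeR fit at the top to the fits that leave out a library. Filled points have an adjusted p below 0.05: the sizes of Hnrnpc and Qki stay between -0.61 and -0.41 while the call is lost in 7 of the 14 alternatives for each.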

How the data were processed

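Estimated counts per gene, whole numbers not scaled between libraries, came as 1 table deposited by the authors with a column for each library. The submitters' processing notes name DESeq2 1.40.2, Salmon and the build GRCm39 (mm39), without roles; annotation and strand setting were not stated. Groups came from the labels, and 0 columns were left unused. No libraries were merged, since all pairs differed by more than counting noise.

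Genes were kept with filterByExpr and scaled with TMM in edgeR 4.0.16 (R 4.3.3). The diets were compared over all 19109 genes by the robust quasi-likelihood test, two-sided, with Benjamini-Hochberg adjustment, on counts from which CPM were computed. Standard errors are the size of the log2 fold change over the square root of F. DESeq2 1.42.0 and limma 3.58.1 (voom) were alternatives.

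Members and lists were chosen with earlier results of these data known. Values per library are given for called members, Qki, the 6 members of smallest p in each direction, and in each family the 3 of highest mean CPM (not per length) and the one above 5 CPM of largest ad libitum spread. In each list of other splicing genes the gene of smallest p is named, except in 1 list that is not reported separately here. GENCODE M21 (GRCm38) gave shared sequence in words of 31 bases and overlaps, and 13 members shared over 20%.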

Additional observations from a re-analysis of the deposited data

How the results depend on the processing

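Of 322 values of 23 named members under 14 alternatives, 294 kept direction and side of the threshold, 14 lost a call, 5 gained one and 9 changed sign. By DESeq2 6 members were called, 1 higher and 5 lower (Hnrnpc, Qki, Rbm28, Rbm45, Hnrnph1 and Srsf2), which is 8% beside 7.4% of all genes, and 3 genes of the lists. Limma-voom and edgeR without robust shrinkage called 0 members, with 16 (21.3%) at an unadjusted p below 0.05 in each, against 20.3% and 20.6% of all genes. When a library was left out, the count of members called lower ran from 0 to 3, that of list genes from 0 to 5 (Pcbp3, Prpf19, Ptbp3, Rbfox1 and Srrm4, without ad libitum replicate 1, which is 3.91% against 6.18% of all genes), the median over members from -0.0238 to 0.0158 and that of the RBM family from -0.0191 to 0.0227. In these fits 0 members were called higher, and 8 to 17 members (10.7% to 22.7%) had an unadjusted p below 0.05, against 12.8% to 27.4% of all genes. Srsf5 was at -0.0011 with upper-quartile scaling and at -0.00063 with a mean count of at least 50. With a library left out Srsf5 ran from -0.0339 to 0.0433, Rbm39 from -0.00977 to 0.0651, Rbm25 from -0.00687 to 0.0440 and Rbms3 from -0.281 to 0.0334. The causes were not tested.

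The labels give both diets replicate numbers 1 to 3. Same-numbered libraries correlated at 0.21, -0.04 and -0.11 in their deviations from the group means, and not every library correlated best with its own number. Deviations from a mean of 3 libraries depend on each other, so these correlations cannot decide whether the numbers pair libraries. The labels do not say what a number marks. With the replicate block 285 genes (1.49%) were called in place of 95, among them 2 members, Hnrnpc (-0.43, adjusted p = 0.0397) and Qki (-0.54, adjusted p = 0.0385). Low counts limited Srsf3-ps, Rbm8a2, Rbm46 and Rbm47, all under 1 CPM on average.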
